A study of Mus musculus with 8 samples.

Results

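The genes described here encode the proteins of the cytosolic ribosome and the nuclear-encoded subunits and assembly factors of the mitochondrial respiratory chain. They were chosen by symbol and not by their peaks: Rpl or Rps followed by a number and at most 1 letter a, l or x, Rplp0 to Rplp2, Rpsa, and all symbols that start with Ndufa, Ndufb, Ndufc, Ndufs, Ndufv, Uqcr, Cox4 to Cox8 or Atp5. This gave 170 of the 21951 protein-coding genes of the GENCODE M21 annotation of mouse genome build GRCm38 (mm10), 80 of them ribosomal protein genes and 90 respiratory chain genes. The 170 records carry 169 symbols, since Atp5o is annotated as 2 genes.

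N6-methyladenosine (m6A) is a methyl mark on adenosine inside mRNA, set mainly by the METTL3 and METTL14 methyltransferase complex at short motifs such as GGAC. It is read out by m6A-methylated RNA immunoprecipitation sequencing (MeRIP-seq), in which fragments pulled down by an m6A antibody are compared with the input RNA and enriched stretches are listed as peaks. The mark is known for being frequent in long internal exons and around stop codons, and sparse near exon junctions. Ribosomal proteins build the 2 ribosomal subunits. The respiratory chain passes electrons through complexes I, III and IV of the inner mitochondrial membrane, and ATP synthase uses the proton gradient that results. Most of these proteins are housekeeping proteins found in nearly all cells, but the symbols also take in paralogues known for use in only some tissues, such as muscle or testis.

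The study profiled bone-marrow-derived macrophages (BMDMs) from 8-week-old C57BL/6 mice, with 2 wild-type (WT) and 2 Mettl3-/- (KO) mice. Bone marrow cells were grown for 7 days with 40 ng/mL M-CSF, the growth factor that turns marrow progenitors into macrophages, and the labels name no further treatment of the sequenced cells. KO mice carried floxed Mettl3 alleles and the Lyz2-Cre driver (Mettl3 fl/fl Lyz2cre/+), which recombines in myeloid cells, and the WT littermates carried the same floxed alleles without Cre (Mettl3 fl/fl Lyz2+/+), so any cell in which Cre did not act keeps Mettl3. An immunoprecipitated and an input library per mouse made 8 libraries, from which the authors deposited 4 peak lists, 1 per mouse, here called WT-1 and WT-2 for the wild type and KO-1 and KO-2 for the knockout.

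The lists held 6159, 6263, 6378 and 6684 peaks, each with a position, a strand and a score, and no read counts, so sequencing depth and expression level are unknown for every gene below. A gene without a peak was therefore not listed, which does not show that its mRNA carried no m6A. No list held a peak under 300 bp, and 95.6% to 96.3% of the peaks assigned to a gene lay within 1 annotated exon. Mettl3 had no peak in any list, so the lists give no check of the knockout. Of 6 macrophage markers (Csf1r, Adgre1, Itgam, Cd68, Lyz2, Spi1), 0 had a peak, so presence of a peak gives no check of the cell type either.

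To show what the listed sites look like, the stretches below come from 4 genes where peaks of 3 lists covered the same GGAC; Ndufa2, whose last exon was listed with GGAC in all 4 lists, is described further on without its sequence. Each is 30 bases of the GRCm38 reference, 5′ to 3′ on the gene's strand, with GGAC in capitals. The motif is a description of the sequence under the peak and does not locate the methylated base.
Rpl14, coding sequence, chr9:120574235-120574264, plus strand: caagaaggccacaGGACcaggcaagaaggc
Rps6, downstream of the annotated 3′ end, chr4:86854573-86854602, minus strand: gaatacatctataGGACtgctagaatatgg
Ndufaf1, coding sequence, chr2:119660332-119660361, minus strand: ccttctcctgacaGGACacctgaagttagt
Ndufaf4, 3′-UTR, chr4:24902278-24902307, plus strand: ggcattgtgttagGGACagataatcagcag

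Few of these genes were listed. A peak in at least 1 of the 4 lists was found for 11 of the 170 genes, or 6.47% (Wilson 95% interval 3.65% to 11.2%), against 32.1% of all protein-coding genes (7055 of 21951, interval 31.5% to 32.8%). Ribosomal protein genes had a peak in 3 of 80 cases (3.75%, interval 1.28% to 10.5%) and respiratory chain genes in 8 of 90 (8.89%, interval 4.57% to 16.6%). The intervals cover counting error over genes, genes are not independent replicates, and no test was run on a list chosen by name. Without the 8 Ndufaf assembly factors, which the symbol rule takes in with the subunits, the share was 4.94%. Of 11 paralogues known for restricted use (Rpl3l, Rpl10l, Rpl39l, Cox4i2, Cox6a2, Cox6b2, Cox7a1, Cox7b2, Cox8b, Cox8c and Ndufa4l2), named after the values were seen, 0 had a peak, and without them the share was 6.92% of 159 genes.

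All 8 listed respiratory chain genes were complex I subunits or assembly factors. The groups were set by symbol alone, so Ndufa4 and Ndufa4l2, both without a peak, were counted as complex I subunits. Whether each gene belongs to the complex of its group was not checked. Among complex I subunits, 5 of 38 had a peak (13.2%). Among the Ndufaf assembly factors, which help build complex I and are not part of it, 3 of 8 did (37.5%, interval 13.7% to 69.4%). That interval held the 32.1% of all protein-coding genes, so a low share was not shown for the assembly factors. Respiratory chain assembly factors outside the symbol rule had a peak in 16 of 32 genes (50%). Complex III (0 of 8), complex IV (0 of 18) and ATP synthase (0 of 18) had none, which by the Wilson interval allows shares of up to 32.4%, 17.6% and 17.6%. Of the ribosomal proteins, the large subunit had 1 listed gene of 49 (2.04%) and the small subunit 2 of 31 (6.45%). The interval of the large subunit (up to 10.7%) lay below that of the assembly factors (from 13.7%); all other intervals overlapped, and no further order among the groups was established.

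**Figure D1:**
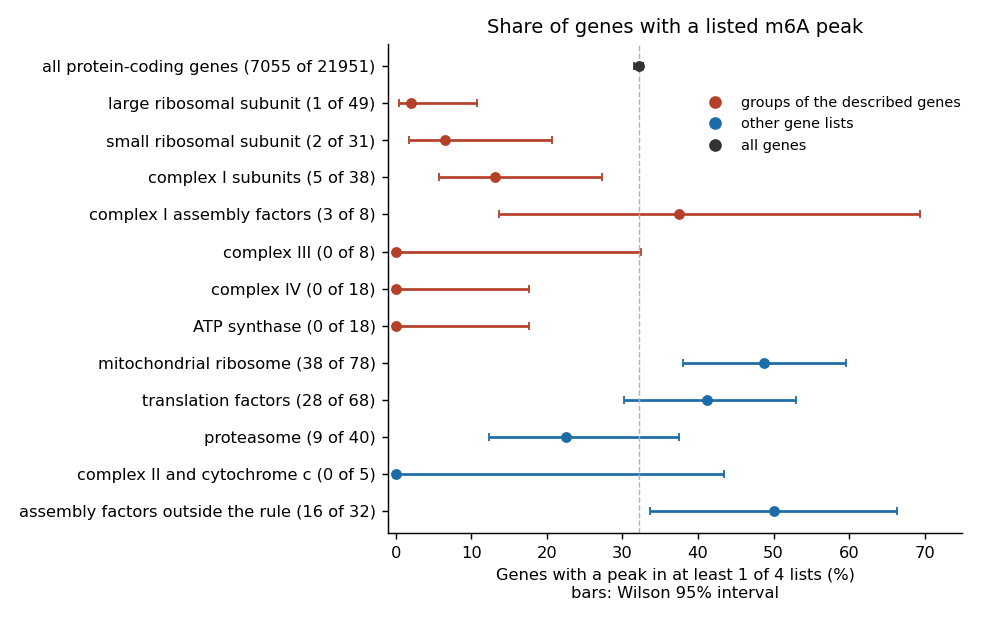
Points give the percentage of genes with a peak in at least 1 of the 4 lists, on the horizontal axis, for each gene group with its count; bars are Wilson 95% intervals and the dashed line is the share of all protein-coding genes, 32.1%. The ribosomal subunits, the complex I subunits, complex IV and ATP synthase lie left of the line with their whole interval, and the mitochondrial ribosome, at 48.7%, lies right of it.

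Most gene groups of neighbouring function had higher shares, but complex II with cytochrome c did not. The mitochondrial ribosome (symbols Mrpl or Mrps plus a number), which translates the mitochondrially encoded subunits, had a peak in 38 of 78 genes (48.7%, interval 37.9% to 59.6%). Cytosolic translation factors (Eif and Eef symbols) had a peak in 28 of 68 genes (41.2%, interval 30.3% to 53.0%), and respiratory chain assembly factors outside the symbol rule, such as those of complex IV, in 16 of 32 (50%, interval 33.6% to 66.4%). The proteasome, another set of abundant housekeeping subunits, had a peak in 9 of 40 genes (22.5%, interval 12.3% to 37.5%). Complex II with cytochrome c had 0 of 5, which by the interval allows a share of up to 43.4%. The intervals of the mitochondrial ribosome and of the cytosolic ribosomal proteins did not overlap.

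The symbol rule left out genes that share the Rpl or Rps stem. Of 11 such protein-coding genes, 3 had a peak: Rps27rt in WT-2 and both KO lists, Rpl36al in WT-1 and KO-2, and Rpl7l1 in WT-2. These were named after their values were seen. The 13 protein-coding genes of the mitochondrial genome, whose transcripts are not made in the nucleus, had no peak in any list.

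Counted list by list, the described genes with a peak numbered 6 and 5 in the WT lists and 5 and 9 in the KO lists (replicate 1 first), that is 3.53%, 2.94%, 2.94% and 5.29% of the 170. The same lists held a peak for 19.2%, 19.9%, 19.3% and 20.4% of all protein-coding genes. WT lists averaged 5.5 ± 0.707 genes (SD, n = 2), KO lists averaged 7 ± 2.83 (SD, n = 2), a difference of 1.5 (2-sided exact permutation p = 1). With 2 mice per genotype the test cannot go below 0.333. KO-1 equalled WT-2, and only KO-2 was above both WT lists; without KO-2 the difference was -0.5. With only the 50% of peaks with the highest scores in each list, the direction turned: the WT lists held 5 and 3 of the genes and the KO lists 0 and 2, a difference of -3. No direction between the genotypes was therefore established.

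Ribosomal protein genes with a peak averaged 2 ± 1.41 (SD, n = 2) per WT list and 1.5 ± 0.707 (SD, n = 2) per KO list (exact permutation p = 1). Respiratory chain genes averaged 3.5 ± 0.707 (SD, n = 2) and 5.5 ± 2.12 (SD, n = 2), a difference of 2 (exact permutation p = 0.667). WT-1 alone held 3 ribosomal protein genes, and KO-2 held 7 respiratory chain genes, where the WT lists held 3 and 4 and KO-1 held 4.

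Of the 11 listed genes, 7 had a peak in at least 2 lists and 2 in all 4, Ndufa2 and Ndufaf4; among all genes with a peak, 30.4% were in all 4 lists. The 4 genes of a single list were 36.4% of the 11, close to the 32.2% of all genes with a peak that were in 1 list only. By the rule of a peak in both WT lists and neither KO list, 0 of the 11 genes were lost in KO, where 3.84% of all genes with a peak were (271 of 7055). By the opposite rule 0 of 11 were gained, where 4.88% of all were (344 of 7055). At those rates 11 genes would give less than 1 gene for each rule, so the zeros are no result about these genes.

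**Figure D2:**
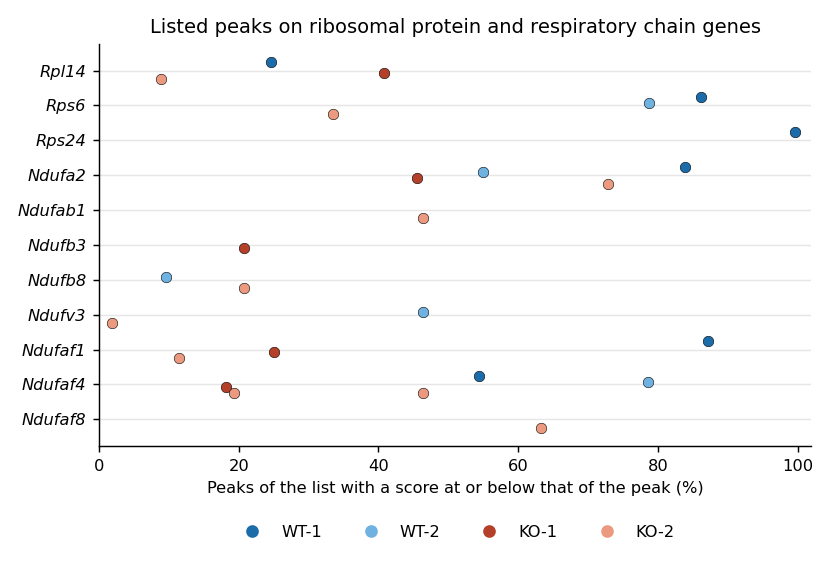
Each point is 1 listed peak on the gene named at the left, coloured by list. The horizontal axis is the percentage of the peaks of that list with a score at or below its own, so 100 is the highest score of the list. The 26 points run from 1.80 to 99.7, 8 of the 11 WT points and 2 of the 15 KO points lie right of 50, and Ndufa2 and Ndufaf4 carry points of all 4 colours.

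The 11 genes carried 26 peaks, 7 on ribosomal protein genes and 19 on respiratory chain genes. The scores have no unit stated in the sources, so each is given with its rank, the percentage of peaks of the same list at or below it. The highest score was 3233.06 in each of the 4 lists, and whether this is a ceiling is not stated. How far a score follows depth, expression or peak width was not tested. The median rank of the 26 peaks was 45.9%, with a range of 1.80% to 99.7%, and 10 peaks were in the upper 50% of their list. Their widths ran from 313 to 1173 bp with a median of 487 bp. GGAC was present on the gene's strand in 23 of the 26 peaks, where 86.8% to 88.5% of all peaks of the 4 lists held it. The pooled median combined lists that differed. The median rank was 85.0% over the 6 peaks of WT-1 and 55.0% over the 5 of WT-2, but 25.01% over the 5 of KO-1 and 27.2% over the 10 of KO-2. In the upper 50% of their list were 8 of the 11 WT peaks and 2 of the 15 KO peaks. The lists hold partly different genes, and peaks of the same gene recur, so peaks are not replicates of a genotype. Among genes listed in both genotypes, WT peaks ranked above KO peaks for Rps6, Ndufaf1, Ndufaf4 and Ndufv3. For Ndufb8 the WT peak ranked below, and for Ndufa2 and Rpl14 the ranks overlapped. Both WT medians were above both KO medians, with an exact permutation p of 0.333 (2-sided, n = 2 lists per genotype), the smallest this design can give; the comparison was made after the values were seen.

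Rpl14, a protein of the large subunit, was the only large-subunit gene listed. Its peaks began at the first base of the last exon, exon 6 of 6, which is 560 bp long and holds 300 bp of coding sequence. They spanned chr9:120574095-120574446 in WT-1, chr9:120574095-120574570 in KO-1 and chr9:120574095-120574588 in KO-2, each over the stop codon. The scores were 224.27, 422.31 and 131.1, at 24.6%, 40.8% and 8.93% of their lists. WT-2 had none, and the WT-1 score lay between those of the KO lists. The Rpl14 stretch printed above lies in this exon.

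Rps6, the small-subunit protein phosphorylated by S6 kinases downstream of mTOR, was listed in both WT lists and in KO-2. Its peaks covered the whole last exon (exon 5, 296 bp) and ran on past the annotated end of the gene by 546 bp in WT-1, 269 bp in WT-2 and 561 bp in KO-2. They spanned chr4:86854114-86854955, chr4:86854391-86854955 and chr4:86854099-86854955. The scores were 2317.07 in WT-1, 2108.35 in WT-2 and 427.88 in KO-2, at 86.1%, 78.7% and 33.5% of their lists. Both WT scores were above the KO-2 score and KO-1 had no peak; with 2 lists per genotype this difference was not tested. Each of the 3 peaks held 2 GGAC. The 1 printed above lay in the unannotated stretch, and the place of the other is not given here. Since all 3 peaks ran past the annotated end, they cannot be assigned to the annotated Rps6 mRNA alone.

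Rps24, also a small-subunit protein, was listed in WT-1 only, with the highest rank of all 26 peaks (score 3100, 99.7%). The 489 bp peak, chr14:24493189-24493677, lay within 1 exon of a transcript annotated as retained intron and covered only 111 bp of coding exon 4, and it held no GGAC. Counting only peaks that lay wholly in the longest coding transcript of their gene, the ribosomal protein genes kept 1 of 3, Rpl14.

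Ndufa2, an accessory subunit of the NADH-oxidising arm of complex I, had a peak in all 4 lists on its last exon, exon 3 of 3. The peaks of WT-2, KO-1 and KO-2 equalled this 327 bp exon base for base (chr18:36742332-36742658), and that of WT-1 was 313 bp of it. Each held the final 92 bp of the coding sequence with the stop codon. The WT scores were 1976.72 and 816.86 (83.9% and 55.0% of their lists), and the KO scores were 502.38 and 2044.93 (45.6% and 72.8%). The WT and KO ranks overlapped.

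Ndufaf4, an assembly factor of complex I, also had a peak in all 4 lists, but not at the same place. Its last exon is 3308 bp long, nearly all of it 3′-UTR. A peak from the start of this exon over the stop codon was listed in WT-1 and KO-2 (both chr4:24901694-24902534) and in WT-2 (chr4:24901694-24902866), at 54.3%, 46.4% and 78.6% of their lists. A second stretch, more than 1 kb past the stop codon, was listed in KO-1 (chr4:24903027-24903396, score 186.58, 18.2%) and KO-2 (chr4:24903042-24903503, score 232.67, 19.3%). When overlapping peaks of the 4 lists were merged, the 11 genes had 13 regions, and this was the only 1 present in both KO lists and neither WT list; over all genes 6.19% of 12350 regions were so. No region of these genes was present in both WT lists and neither KO list, where 3.32% of all regions were. Both KO peaks ranked in the lowest 20% of their lists, and with 1 region in 13 the count is no result about the genotype.

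**Figure D3:**
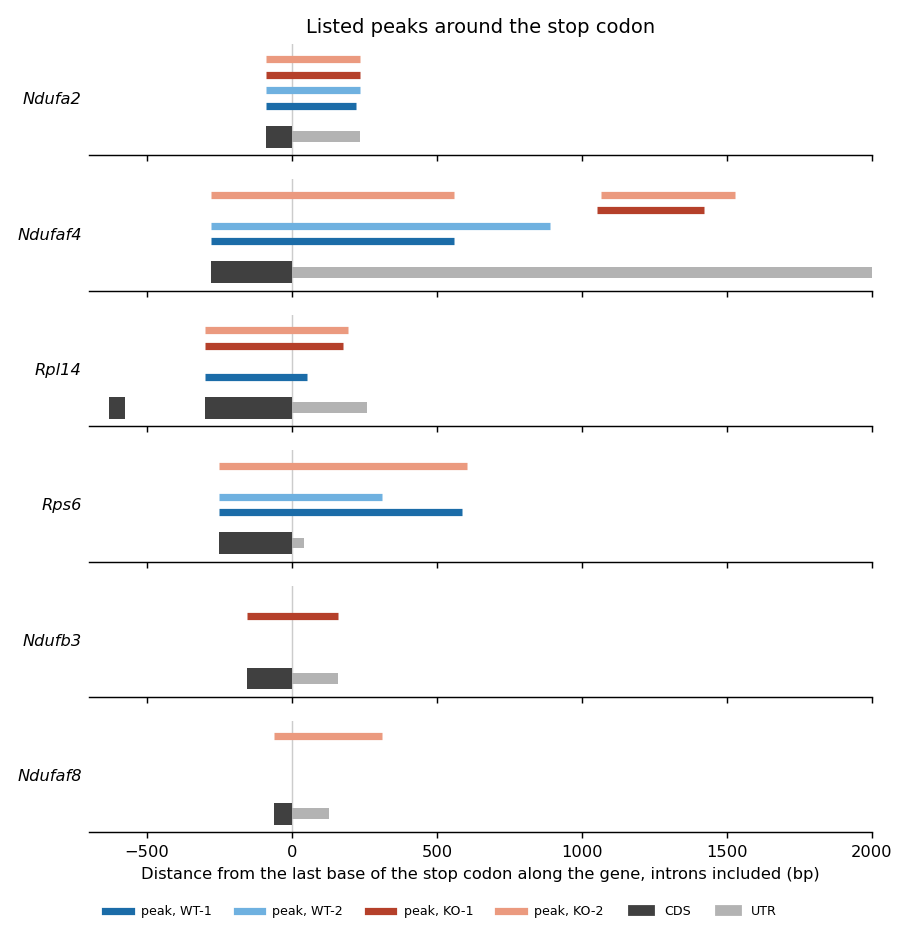
Peaks (coloured bars, by list) of the 6 genes with a peak over the stop codon, drawn above the coding (dark, tall) and untranslated (grey) parts of the exons; the horizontal axis is the distance in bp from the last base of the stop codon, in the direction of the gene, with introns included. The peaks over the stop codon start at an exon edge in all 6 genes, Rps6 and Ndufaf8 peaks run past the grey end of the drawn transcript, and the Ndufaf4 stretch beyond 1000 bp is listed in KO-1 and KO-2.

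Ndufaf1, an assembly factor that binds complex I intermediates, was listed in WT-1 and in both KO lists on exon 2 of 5, its longest (658 bp), which holds the start of the coding sequence. The peaks were chr2:119660002-119660486, chr2:119660002-119660659 and chr2:119660002-119660508, and that of KO-1 equalled the exon. The scores were 2496.61, 245.77 and 153.19, at 87.2%, 25.01% and 11.4% of their lists. The WT-1 peak ranked above both KO peaks, but WT-2 listed none.

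Ndufv3, an accessory subunit of complex I, was listed in WT-2 (chr17:31527319-31528342, score 625.78, 46.3%) and KO-2 (chr17:31527962-31528401, score 68.21, 1.80%). Both peaks were coding and lay in exon 3 of 4, which is 1092 bp long; of the 3 annotated coding transcripts, 1 held each peak. The KO-2 peak had no GGAC and the lowest rank of all 26.

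Ndufb8, a membrane-arm subunit of complex I, was listed in WT-2 (chr19:44548620-44548972, score 143.07, 9.55%) and KO-2 (chr19:44549189-44549959, score 248.86, 20.8%). The peaks did not overlap each other, and both lay outside the longest coding transcript, in 1 of the 4 coding transcripts. Ndufb8 therefore counts as present in both genotypes without a shared site.

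The remaining 3 genes were in 1 list each. Ndufb3, a membrane-arm subunit, was listed in KO-1 with a peak equal to its 316 bp last exon and without GGAC. Ndufab1, the mitochondrial acyl carrier protein that is also a complex I subunit, was listed in KO-2 within the 3′-UTR of its 2936 bp last exon. Ndufaf8, an assembly factor, was listed in KO-2 over its stop codon, with 182 of 372 bp outside the longest coding transcript. These 3 genes were thus in KO lists, 2 of them in KO-2, the list with the most peaks, while the single-list gene Rps24 was in WT-1. How all single-list genes divide between the lists is not given here, so this is no result about the genotype.

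The stop codon lay inside 15 of the 26 peaks (57.7%), on 6 of the 11 genes, where 31.6% to 36.2% of all assigned peaks of the 4 lists held it. An edge of the peak fell exactly on an exon edge in 19 of the 26, and 5 peaks equalled a whole exon; in the lists, 44.3% to 53.1% of assigned peaks had an edge on an exon edge. The Ndufa2 and Ndufb3 peaks, on exons of 327 and 316 bp, could hardly be shorter and still be listed, given the 300 bp minimum. Peaks of 1 gene in several lists share their target, so these counts describe 11 genes and not 26 separate events.

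The genes are short, and so are their exons. In the longest coding transcript, the 170 genes had a median spliced length of 834 bp, 5 exons and a coding sequence of 444 bp, where all protein-coding genes had medians of 2540 bp, 7 exons and 1176 bp. Their longest exon had a median of 300.5 bp, against 1185 bp in all genes and 1795 bp in all genes with a peak. Only 86 of the 170 (50.6%) had an exon of at least 300 bp in this transcript, where 91.1% of all genes did. Over all annotated transcripts, 149 of the 170 (87.6%) had such an exon, against 95.3% of all genes. All 11 listed genes were among the 149, as 7053 of all 7055 genes with a peak had such an exon. Listed peaks are at least 300 bp wide and mostly lie within 1 exon, so this was nearly fixed in advance and is no result about these genes. Ribosomal protein and respiratory chain genes were alike in exon length, with median longest exons of 304 and 300.5 bp. The mitochondrial ribosome genes had 588.5 bp and a spliced length of 1302 bp.

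**Figure D4:**
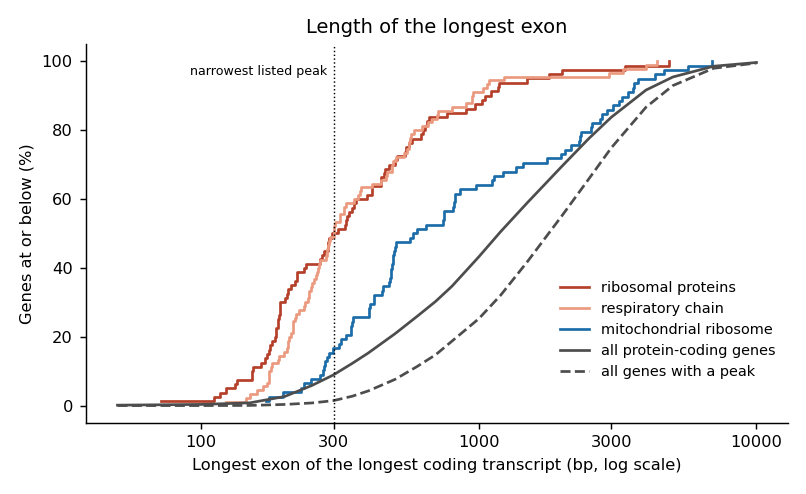
Cumulative percentage of genes (vertical axis) whose longest exon is at or below the length on the horizontal axis (bp, log scale), for 5 gene sets; the dotted line marks 300 bp, the width of the narrowest listed peak. The ribosomal protein and respiratory chain curves run close together and have passed about 50% at the line, where all protein-coding genes are near 9%.

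Within the described genes, listed ones were longer than unlisted ones: the medians were 1009 and 830 bp spliced, and 560 and 290 bp for the longest exon. By class of longest exon, a peak was found in 3 of 84 genes under 300 bp (3.57%), 3 of 50 of 300 to 600 bp (6%), 3 of 26 of 600 to 1200 bp (11.5%) and 2 of 10 of 1200 bp or more (20%). All protein-coding genes had 5.14%, 18.7%, 27.1% and 44.1% in the same classes, so the described genes were below them in every class. Only from 300 to 600 bp did the interval of the described genes (2.06% to 16.2%) leave out the share of all genes; in the other classes the counts were too small to set them apart. The mitochondrial ribosome was above them in every class, with 3 of 13, 11 of 27, 7 of 12 and 17 of 26 genes, and none of its intervals held the share of all genes. Applying the class shares of all genes to the class sizes of the described genes would give 25.1 of 170 listed genes (14.8%). This lies between the 11 seen and the 32.1% of all genes. By class of spliced length the same sum gave 21.8 genes (12.8%). By the number of GGAC sites at least 100 bases from any exon junction it gave 28.5 genes (16.8%). These sums carry no test. What else differs within a class, expression included, was not tested.

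**Figure D5:**
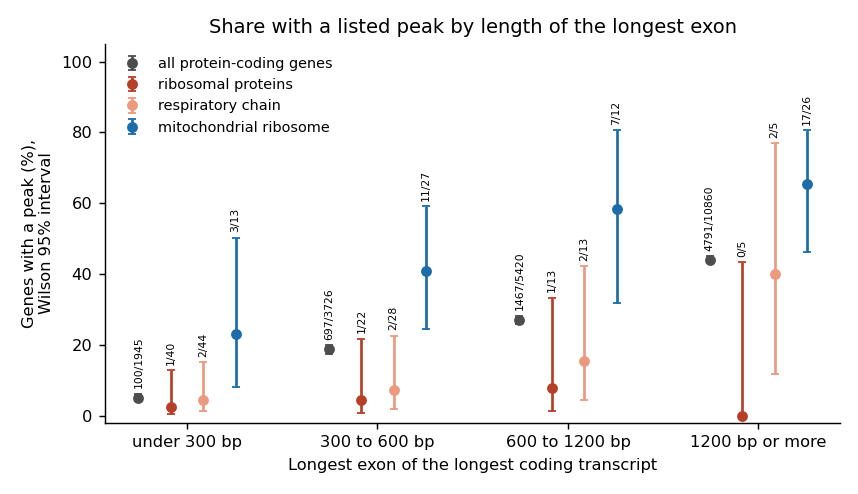
Percentage of genes with a peak in at least 1 list (vertical axis, bars are Wilson 95% intervals) by length of the longest exon, with listed genes over all genes of the class above each point. From left to right all genes rise from 5.14% to 44.1%; ribosomal protein genes stay at or below 7.69%, and the mitochondrial ribosome lies above all genes in each class.

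By spliced length, the described genes under 1 kb were listed in 5 of 109 cases (4.59%), against 6.93% of all such genes. From 1 to 2 kb the counts were 4 of 49 (8.16%) against 19.2%, and 14 of 28 for the mitochondrial ribosome. From 2 to 4 kb 2 of 9 were listed against 36.3%, and at 4 kb or more 0 of 3 against 51.9%. The interval of the described genes held the share of all genes in each of these 4 classes. From 1 to 2 kb it did so only narrowly, with an upper bound of 19.19% against 19.16% for all genes. The share of genes outside the described ones, 19.26%, lay just above that bound. That class is therefore borderline, and in the other classes of spliced length a gap was not shown.

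Several long members had no peak. Rps15a, a small-subunit protein, has an annotated longest exon of 4822 bp in a 5179 bp transcript. Atp5g1, a subunit of the membrane ring of ATP synthase, has 4367 of 4715 bp, and Ndufb2, a complex I subunit, 3991 of 4371 bp. Rps20 has 3350 of 3706 bp, Rpl18 1992 of 2989 bp and Rpl22 1792 of 2051 bp. Ndufs1, the largest subunit of complex I, has a 2661 bp transcript but no exon above 327 bp. Whether the macrophages used these long forms or shorter ones cannot be read from peak lists.

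Over the 170 genes together, the GGAC motif itself was about as dense as elsewhere. The median was lower in ribosomal protein genes, at 3.30 per kb, than in respiratory chain genes, at 4.005 per kb. GGAC occurred in 97.1% of the 170 longest coding transcripts and in 98.2% of all, with a median of 3.70 and 4.004 per kb. Its number per transcript differed, with a median of 3 against 10 in all genes, and so did its distance from exon junctions. A GGAC at least 100 bases from any junction was found in 60% of the described genes, against 89.4% of all genes. Of all their GGAC sites 37.4% lay that far, against 53.3%. This second share was 39.2% in translation factors, 33.3% in the proteasome and 60.8% in the mitochondrial ribosome, so a low value was not particular to the described genes. With no such site 4 of 68 genes were listed (5.88%, all genes 7.99%), with 1 to 2 sites 2 of 68 (2.94%, all genes 17.5%), with 3 to 5 sites 3 of 26 (11.5%, all genes 28.8%) and with 6 or more sites 2 of 8 (25%, all genes 46.3%). Only with 1 to 2 sites did the interval of the described genes (0.810% to 10.1%) leave out the share of all genes. The count of distant GGAC sites depends on exon length, and these were not separated here.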

How the data were processed

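MeRIP-seq peak lists of BMDMs from 2 WT and 2 KO mice were used. The authors deposited 1 list per mouse with position, strand and a score per peak. Per the labels (submitters' processing notes), reads were trimmed with cutadapt 1.9.3 and aligned with HISAT2 2.0.4 to mm10. The peak caller, its threshold and the treatment of reads with several matches are not given in the sources used here. A table of all sites of the series was not used.

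Each peak was assigned to the protein-coding gene with the largest same-strand exon overlap (at least 1 bp; GENCODE M21, all annotated transcripts). Lengths and GGAC counts come from the longest coding transcript (longest CDS, then longest spliced length). Genotypes were compared by exact permutation over the 6 labellings of the 4 lists; p-values measure only the spread between these mice. Shares carry Wilson 95% intervals. Assignment was tested on simulated peaks and returned the planted lists for 98.95% of 2000 genes. These peaks were 300 bp wide and lay wholly inside exons of at least 300 bp. Peaks that run past a gene end and reads shared with copies were not tested. Processed pseudogenes were matched to coding transcripts with blastn 2.17.0 (at least 80% identity over 50% of the copy). Scripts ran in Python 3.11.15 with pysam 0.24.0, scipy 1.17.1, matplotlib 3.10.9 and numpy 2.4.6.

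Named were all described genes with a peak, and among those without one the 6 with the longest exon and the 6 with the longest spliced transcript. The gene groups and lists were chosen with earlier results of these data known. The sums over class shares, the ranks by genotype, the paralogue list and the pseudogene comparison were chosen after seeing the data. Other settings were the upper 50% of scores, equal numbers of top peaks, other overlap rules, other transcript choices, leaving out each list and pairing by replicate number.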

Additional observations from a re-analysis of the deposited data

How the results depend on the processing

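The share of described genes with a peak was below that of all genes under each setting in which both were computed, but the KO minus WT difference did not keep its sign. With only the 50% of peaks with the highest scores, 6 of the 170 genes were listed (3.53%, against 20.3% of all genes), 5 and 3 of them in the WT lists and 0 and 2 in the KO lists, the KO minus WT difference became -3, and 2 genes were in both WT lists and neither KO list. Leaving out 1 list at a time gave differences of -0.5 (without KO-2) to 3.5 (without KO-1), all-gene shares of 28.8% to 30.3%, lost genes of 0 to 1 (1 without WT-2 or without KO-2) and gained genes of 0 to 2 (2 without WT-1 or without KO-1, 1 without KO-2). With only peaks wholly in the longest coding transcript, a setting added after seeing the data, 27.97% of all genes and 4.12% of the described genes were listed. The replicate block, which pairs lists by number, left the difference at 1.5 (paired permutation p = 1, smallest possible 0.5). Counted within pairs, 2 genes were listed in the WT and not the KO list of a pair, and 5 the other way round. Such a gene can still be listed in the other pair, as Rpl14 and Ndufaf1 were in WT-1. Shares of all genes lost or gained under the settings above are not given here. The counts of lost and gained genes are therefore no result about these genes. The labels do not say that a number marks a shared litter or day. With all exons of a gene joined, the median spliced length was 1701 bp, and with the APPRIS principal transcript it was 857.5 bp with a longest exon of 308 bp. The causes were not tested. Using fewer peaks or lists can only keep or lower the number of listed genes, whatever the data. Lists without counts cannot show how deep a missing peak was looked for.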

Other observations

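Processed pseudogenes are copies of mRNAs, most of them without introns. Of 2018 processed pseudogenes whose closest coding transcript belonged to 1 of the 170 genes, 29 had a listed peak (1.44%, Wilson 95% interval 1.002% to 2.06%), against 83 of 8218 other processed pseudogenes (1.01%, interval 0.816% to 1.25%). Of the 2018 copies, 1903 were annotated with 1 exon, and 28 of these had a peak (1.47%); the other copy with a peak, Rpl37rt, is annotated with more than 1 exon. Per list the 29 copies numbered 9 and 14 in WT and 9 and 12 in KO. The 29 copies were closest to 22 of the genes, none of which had a peak of its own. Since only 6.06% of the genes with a copy had a peak, this absence is no result about these genes. Of the 29 copies, 9 were in 2 or more lists, against 61 of the 83 other processed pseudogenes with a peak. Gm10036, a copy of Rpl11, and Gm10250, a copy of Atp5h, were in all 4 lists, and Gm10288 (Rpl11) and Gm10269 (Rpl35) in 3. Gm10036 is 534 bp long and 99.3% identical to Rpl11, whose own longest exon is 286 bp, and Gm10250 is 482 bp and 99.0% identical to Atp5h, whose longest exon is 191 bp. The longest stretch identical between copy and gene was 186 bp for Gm10036 and 239 bp for Gm10250, so reads within that stretch cannot be told apart, and how the authors placed such reads is not given in the sources used here. GGAC was present in 25 of the 29 copies. Of the described genes, 8 of the 132 with a copy had a peak (6.06%) and 3 of the 38 without one (7.89%).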
